A study of Rattus norvegicus with 6 samples.

Results

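The genes described are 6 regulators and markers of the cell cycle, Mki67, Top2a, Cdk1, Pcna, Ccnd1 and Cdkn1a. They were chosen by Ensembl identifier as a fixed list, and 6 of 6 identifiers were present among the 20159 in the deposited expression table. All 6 had a mean of at least 1 FPKM (reads per kilobase of gene length, scaled by the library's total) over the libraries and were among the 12085 genes tested. The symbols were supplied with the list, since the deposited table gives identifiers alone.

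Expression had been measured by sequencing polyadenylated RNA from 6 rat libraries. 3 are labelled primary keratinocyte progenitors, the dividing epithelial cells of the epidermis, and 3 are labelled limbal niche, the cells that surround the corneal stem cells in the limbus. All 6 carry epidermis as their tissue, and the labels give no strain, age, sex, genotype, treatment or time for any of them. The study's design describes 3 culture conditions, some with medium conditioned by limbal niche cells, but the labels tie no library to a condition, so "limbal niche" is used here only as the label. The labels number the libraries as biological replicates and name no animal or culture behind each, so the p values measure only the spread between these samples, part of which may be technical. Marker genes of keratinocytes, cornea or other cell types could not be set against the labels, because 0 of the 20159 identifiers were paired with a symbol by the reference table used.

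A cell enters the cycle when cyclin D1, the product of Ccnd1, activates the G1 kinases that inactivate the retinoblastoma protein and free E2F factors to switch on replication genes such as Pcna. Cdk1 then drives entry into mitosis, Top2a untangles the replicated chromosomes, and the Ki-67 antigen encoded by Mki67 coats them during division. Cdkn1a encodes p21, a target of p53 that inhibits cyclin-dependent kinases and binds the PCNA clamp. In stratified epithelia such as epidermis and cornea, division is confined mainly to basal and early progenitor cells. Transcripts of Mki67, Top2a, Cdk1 and Pcna are widely used to follow the growing fraction of a culture.

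Promoter windows are shown for the 5 members present in the RefSeq promoter table (build GRCr8). Each window holds the 250 bases before the table's start position, 5′ to 3′ on the gene's strand. Capitals mark matches on either strand to CCAAT, the box bound by NF-Y, which reads ATTGG on the other strand. They also mark TTTGAA, which reads TTCAAA on the other strand, and the palindrome TTCGAA, the core of the element known as CHR in cell cycle promoters. The last set is of 4 E2F-type octamers, TTTCCCGC, TTTGGCGC, TTTCGCGC and TTTGCCGC. The windows lie at chr1:199952594-199952843 (minus strand), chr10:84473094-84473343 (minus), chr20:19265043-19265292 (plus), chr3:139955821-139956070 (minus) and chr20:7150682-7150931 (plus).
Mki67: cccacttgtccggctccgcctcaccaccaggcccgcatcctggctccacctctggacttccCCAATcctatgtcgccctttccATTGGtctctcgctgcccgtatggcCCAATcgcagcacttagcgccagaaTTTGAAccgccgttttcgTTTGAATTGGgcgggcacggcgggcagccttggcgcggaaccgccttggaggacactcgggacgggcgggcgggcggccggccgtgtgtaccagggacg
Top2a: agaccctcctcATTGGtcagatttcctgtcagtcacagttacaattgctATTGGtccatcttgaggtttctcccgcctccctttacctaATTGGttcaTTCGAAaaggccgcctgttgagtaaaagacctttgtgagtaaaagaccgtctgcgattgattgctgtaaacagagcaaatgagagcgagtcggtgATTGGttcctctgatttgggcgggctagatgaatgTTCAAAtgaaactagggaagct
Cdk1: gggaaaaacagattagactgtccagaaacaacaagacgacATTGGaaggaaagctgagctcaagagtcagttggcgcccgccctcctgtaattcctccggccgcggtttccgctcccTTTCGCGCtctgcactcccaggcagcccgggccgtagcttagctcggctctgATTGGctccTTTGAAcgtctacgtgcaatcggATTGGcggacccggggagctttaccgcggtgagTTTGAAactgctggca
Pcna: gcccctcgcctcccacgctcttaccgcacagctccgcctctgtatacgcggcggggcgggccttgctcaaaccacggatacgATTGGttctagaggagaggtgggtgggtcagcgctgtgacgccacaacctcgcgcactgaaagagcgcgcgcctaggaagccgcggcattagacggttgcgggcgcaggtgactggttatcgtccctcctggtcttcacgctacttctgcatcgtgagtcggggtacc
Cdkn1a: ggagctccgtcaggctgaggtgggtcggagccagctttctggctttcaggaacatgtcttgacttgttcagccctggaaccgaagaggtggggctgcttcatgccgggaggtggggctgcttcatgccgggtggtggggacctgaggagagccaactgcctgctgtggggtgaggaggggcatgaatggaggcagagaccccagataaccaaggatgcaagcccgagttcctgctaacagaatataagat
The Mki67 window held 4 CCAAT matches and 2 CHR-type matches, one of which shares a base with a CCAAT match. The Top2a window also held 4 and 2, and the Cdk1 window held 3 and 2 together with 1 E2F-type octamer. In Pcna there was 1 CCAAT match alone, and in Cdkn1a none of these letters occurred. Of 33469 promoter windows of the same length, 34.0% held at least 1 CCAAT match, 2.52% at least 3, 17.4% at least 1 CHR-type match, 2.30% at least 2, and 1.73% at least 1 E2F-type octamer. The combination of 3 or more CCAAT with 2 or more CHR-type matches, chosen after the members had been searched, was met by 16 windows (0.0478%), among them Mki67, Top2a and Cdk1. For Mki67, Cdk1 and Cdkn1a the RefSeq gene model reaches 254, 41 and 112 bases upstream of the start used, so other start sites exist there. The Mki67 window of 250 bases thus lies wholly within its gene model. A match describes letters in the window and no binding was measured. Any part of the matches in the levels of these genes over the libraries was not tested.

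Depth differed little between libraries. Whole reads were recovered from the deposited values, with totals between 17678076 and 18237668. The member with the fewest reads was Cdk1 in keratinocyte progenitor 3, with 455, and the one with the most was Ccnd1 in keratinocyte progenitor 1, with 12129. Intervals on single values are exact Poisson 95% intervals of those reads and cover counting error only, since no molecular identifiers are described. Over all tested genes keratinocyte progenitor 1 correlated better with limbal niche 2 and 3 (r = 0.962 and 0.968) than with keratinocyte progenitor 2 and 3 (r = 0.927 and 0.923), and limbal niche 1 better with keratinocyte progenitor 2 and 3 (0.925 and 0.931) than with limbal niche 2 and 3 (0.887 and 0.883). Keratinocyte progenitor 2 and 3 were nearly alike (r = 0.995). The test between the groups, the spread within groups and the likeness to Mki67 are therefore also given without keratinocyte progenitor 1, limbal niche 1 or both.

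The proliferation genes varied several-fold between libraries, and they did so across the labels. Mki67, Top2a, Cdk1 and Pcna were lowest in keratinocyte progenitor 2 and 3, intermediate in limbal niche 1, and highest in keratinocyte progenitor 1 together with limbal niche 2 and 3. From the lowest to the highest library the difference was 4.77-fold for Mki67, 6.12-fold for Top2a, 5.47-fold for Cdk1 and 3.53-fold for Pcna, against 1.94-fold for Ccnd1 and 1.91-fold for Cdkn1a. Keratinocyte progenitor 1 was neither highest nor lowest for the first 4 genes, so leaving it out cannot change their values. It was the highest library for Ccnd1 and the lowest for Cdkn1a, whose differences were 1.37-fold and 1.74-fold without it. In bulk RNA, fewer dividing cells and less of a transcript per dividing cell cannot be told apart.

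Mki67 (ENSRNOG00000028137), the standard marker of cycling cells, measured 21.7, 5.93 and 5.31 FPKM in keratinocyte progenitor 1, 2 and 3. Limbal niche 1, 2 and 3 had 10.2, 16.0 and 25.4 FPKM. Keratinocyte progenitor 1 thus lay above limbal niche 1 and 2, and the groups overlapped. The Mki67 level in keratinocyte progenitor 1 was 3.87 times the mean of keratinocyte progenitor 2 and 3, whose own counting intervals overlapped. Limbal niche 1 was at 1.81 times that mean. Keratinocyte progenitors averaged 10.99 ± 9.30 FPKM, against 17.2 ± 7.66 FPKM for limbal niche (SD, n = 3 each).

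Top2a (ENSRNOG00000053047), which encodes the topoisomerase that separates sister chromatids, showed the widest course of the 6 genes. Its level was 51.1, 9.29 and 9.28 FPKM in keratinocyte progenitor 1, 2 and 3, and 21.6, 38.0 and 56.8 FPKM in limbal niche 1, 2 and 3. The order of the libraries was the same as for Mki67, with limbal niche 3 highest and keratinocyte progenitor 1 next. Keratinocyte progenitor 2 and 3 differed by far less than their counting error (937 and 922 reads), and each other pair of neighbours in the order was separated by more than it. Top2a averaged 23.2 ± 24.1 FPKM over keratinocyte progenitors, against 38.8 ± 17.6 FPKM for limbal niche (SD, n = 3 each).

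Cdk1 (ENSRNOG00000000632), the kinase that triggers mitosis, measured 89.9, 19.2 and 18.1 FPKM in keratinocyte progenitor 1, 2 and 3, while limbal niche 1, 2 and 3 had 45.9, 83.5 and 99.3 FPKM. It ordered the libraries as Mki67 and Top2a did. The counting intervals of keratinocyte progenitor 1 and limbal niche 2 overlapped, so the order of those neighbours is not fixed by Cdk1. Cdk1 averaged 42.4 ± 41.1 FPKM over keratinocyte progenitors, against 76.2 ± 27.4 FPKM for limbal niche (SD, n = 3 each), and the SD of the keratinocyte progenitors came close to their mean.

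Pcna (ENSRNOG00000021264), the sliding clamp of the replication fork, separated the same low libraries from the same high ones but changed the order at the top. It measured 123, 44.2 and 43.9 FPKM in keratinocyte progenitor 1, 2 and 3, while limbal niche 1, 2 and 3 had 75.3, 155 and 95.4 FPKM. Limbal niche 2 was the highest library for Pcna and ranked 3 for Mki67, Top2a and Cdk1. Limbal niche 3, the highest for those genes, ranked 3 for Pcna, at 0.616 times the level of limbal niche 2, and the counting intervals did not overlap. Pcna averaged 70.2 ± 45.4 FPKM over keratinocyte progenitors, against 109 ± 41.4 FPKM for limbal niche (SD, n = 3 each).

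Ccnd1 (ENSRNOG00000020918), the G1 cyclin, stood apart in 1 library. It measured 174, 103 and 110 FPKM in keratinocyte progenitor 1, 2 and 3, while limbal niche 1, 2 and 3 had 113, 89.9 and 123 FPKM. Keratinocyte progenitor 1 was the highest library, 1.64 times the mean of keratinocyte progenitor 2 and 3, while limbal niche 2, which is high for the proliferation genes, was the lowest. The groups overlapped, at 129 ± 39.5 FPKM on average over keratinocyte progenitors, against 109 ± 17.2 FPKM for limbal niche (SD, n = 3 each).

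Cdkn1a (ENSRNOG00000000521), the p21 inhibitor, was the only one of the 6 genes whose groups did not overlap. It measured 102, 112 and 115 FPKM in keratinocyte progenitor 1, 2 and 3, while limbal niche 1, 2 and 3 had 150, 149 and 195 FPKM. All 3 limbal niche libraries were above all 3 keratinocyte progenitor libraries. Such a pattern, higher in limbal niche without overlap, was found for 4.63% of the tested genes (560 of 12085), so a single member with it says nothing about the list. Keratinocyte progenitor 1, which was among the highest libraries for the proliferation genes, was the lowest for Cdkn1a. Limbal niche 3, the highest library for Mki67, Top2a and Cdk1, was also the highest for Cdkn1a. Cdkn1a averaged 110 ± 6.81 FPKM over keratinocyte progenitors, against 165 ± 26.3 FPKM for limbal niche (SD, n = 3 each), a ratio of means of 1.50. The absence of overlap held under the 4 other scalings of the libraries that were tried.

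**Figure D1:**
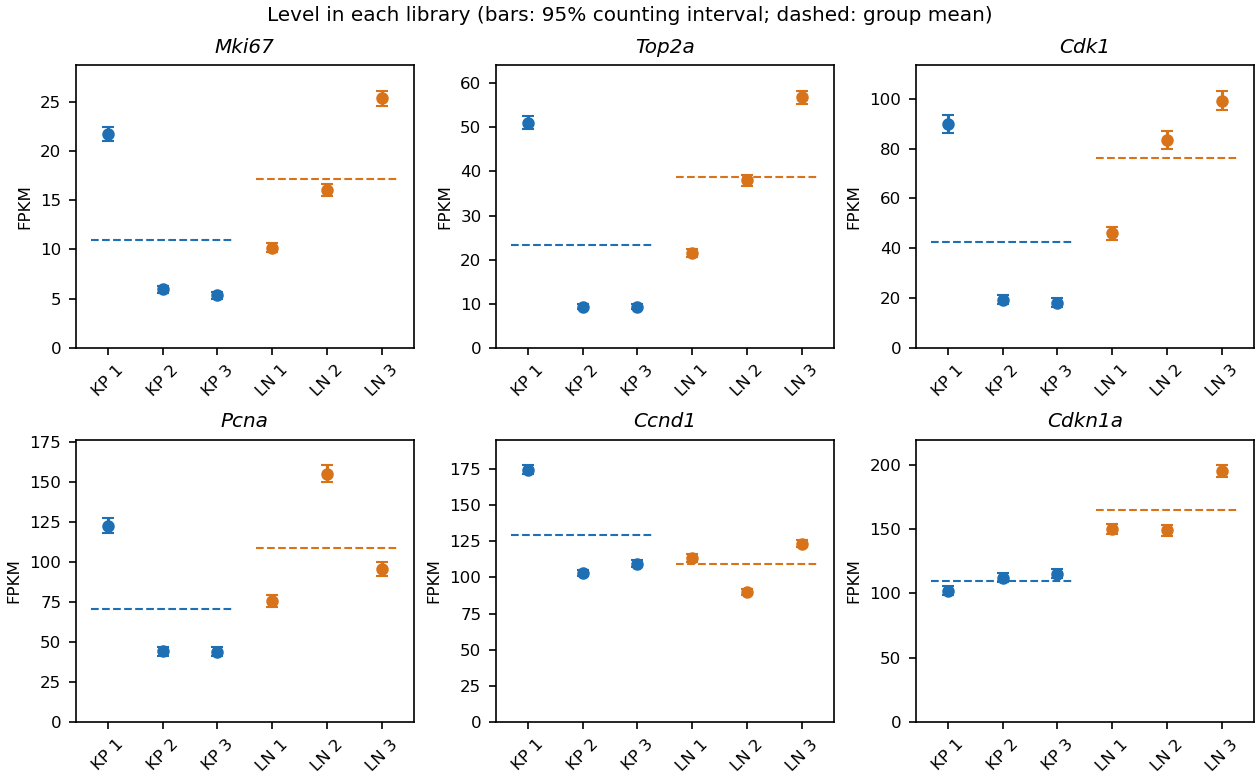
FPKM of each gene (vertical axes, from 0) in keratinocyte progenitor (KP, blue) and limbal niche (LN, orange) libraries 1 to 3. Points are libraries, bars the exact Poisson 95% counting interval and dashed lines the group means. KP 1 lies with LN 2 and LN 3 for Mki67, Top2a, Cdk1 and Pcna, and all LN libraries lie above all KP libraries for Cdkn1a alone.

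The libraries could be placed in 1 order by the mean log2(FPKM + 1) level of Mki67, Top2a, Cdk1 and Pcna. This mean was 3.94 in keratinocyte progenitor 3, 4.00 in keratinocyte progenitor 2 and 4.95 in limbal niche 1. It was 5.77 in limbal niche 2, 5.92 in keratinocyte progenitor 1 and 5.95 in limbal niche 3. The steps from keratinocyte progenitor 2 to limbal niche 1 and from there to limbal niche 2 were wider than those among the 3 highest libraries. The order was the same with pseudocounts of 0.1 and 0.5 and under the 4 other scalings. How close the 3 highest libraries lay depended on the scaling, with values of 5.92, 5.93 and 5.94 under median-of-ratios scaling and of 6.35, 6.63 and 6.71 when each library was scaled to the same FPKM sum. The group means of this level differed by 0.94, higher in limbal niche, with no test made on it. The difference was 0.60 without keratinocyte progenitor 3 and 1.58 without keratinocyte progenitor 1.

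**Figure D2:**
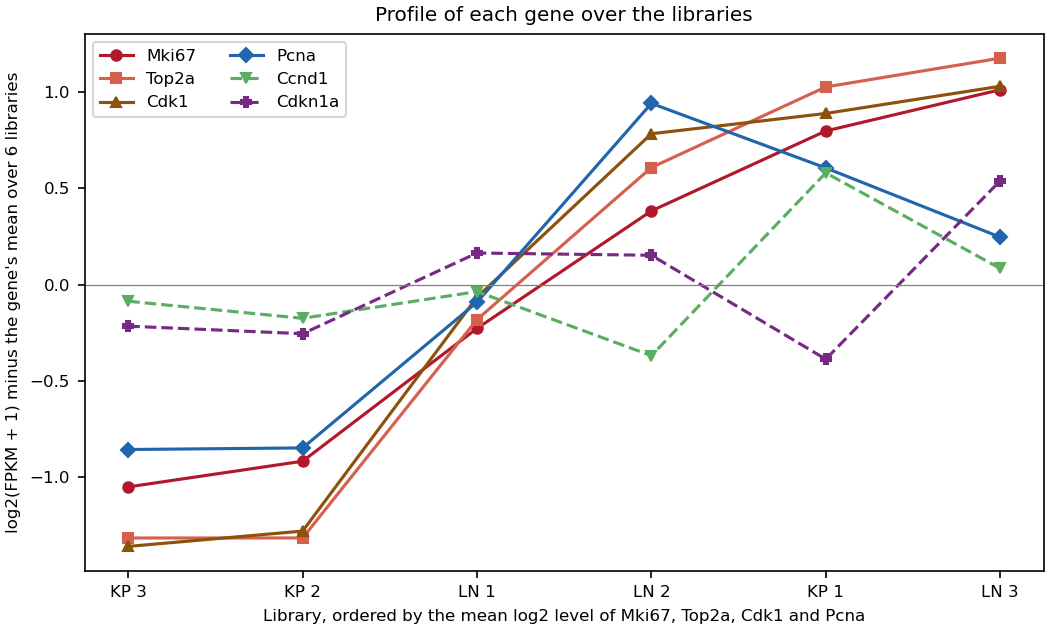
log2(FPKM + 1) of each gene minus its mean over the 6 libraries (vertical axis), with libraries ordered by the mean level of Mki67, Top2a, Cdk1 and Pcna (horizontal axis). Mki67, Top2a and Cdk1 climb along the order and Pcna peaks at LN 2. Ccnd1 (dashed) follows a course of its own. Cdkn1a (dashed) is lowest in KP 1, and without that library its correlation with Mki67 is 0.961. KP is keratinocyte progenitor and LN limbal niche.

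Across the 6 libraries, Mki67, Top2a and Cdk1 followed one another closely. The Pearson correlation of log2(FPKM + 1) with Mki67 was 0.995 for Top2a and 0.981 for Cdk1, and that of Top2a with Cdk1 was 0.993. Among the 12084 other tested genes, Top2a ranked 11 and Cdk1 ranked 87 by likeness to Mki67. All genes of a library share its total and composition, and 5.17% of the other genes reached 0.9 or more with Mki67. Pcna correlated less closely with Mki67, at 0.859 (rank 936), and was closest to Cdk1, at 0.931. The correlation with Mki67 was 0.474 for both Ccnd1 and Cdkn1a, and between Ccnd1 and Cdkn1a it was -0.32. Without keratinocyte progenitor 1 the correlation with Mki67 was 0.994 for Top2a, 0.978 for Cdk1 and 0.830 for Pcna, but 0.961 for Cdkn1a and 0.186 for Ccnd1, so the last values rest on that library. Without limbal niche 1 it was 0.996, 0.986 and 0.860 for Top2a, Cdk1 and Pcna, and 0.522 and 0.472 for Cdkn1a and Ccnd1. Without both it was 0.995, 0.983 and 0.832 for Top2a, Cdk1 and Pcna, and 0.979 and 0.205 for Cdkn1a and Ccnd1. These values describe 6, 5 or 4 libraries and carry no test.

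Outside the list, the tested genes most like Mki67 could be named by identifier alone. Eligible were 2295 genes whose mean reached 10 FPKM and whose log2(FPKM + 1) values spanned 1 or more. Of these, ENSRNOG00000012051 (r = 0.996) and ENSRNOG00000006469 (r = 0.996) followed Mki67 most closely. ENSRNOG00000012051 measured 23.3, 6.88 and 6.80 FPKM in keratinocyte progenitor 1, 2 and 3 while limbal niche 1, 2 and 3 had 11.3, 19.1 and 25.3 FPKM, levels close to those of Mki67 itself. The most opposite courses were those of ENSRNOG00000017801 (r = -0.997) and ENSRNOG00000018487 (r = -0.993). ENSRNOG00000017801 measured 155, 350 and 348 FPKM in keratinocyte progenitor 1, 2 and 3 while limbal niche 1, 2 and 3 had 242, 189 and 147 FPKM. This gene was thus highest in keratinocyte progenitor 2 and 3, the libraries in which Mki67 was lowest.

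Ratios between members within a library, which do not depend on the library's scaling, showed where the proliferation genes parted. The Top2a level was 2.35, 1.57 and 1.75 times that of Mki67 in keratinocyte progenitor 1, 2 and 3, and 2.12, 2.37 and 2.24 times in limbal niche 1, 2 and 3, so this ratio was lowest in the libraries with the lowest levels. The ratio of Pcna to Cdk1 was highest in those libraries. It was 1.36, 2.30 and 2.42 in keratinocyte progenitor 1, 2 and 3, and 1.64, 1.86 and 0.961 in limbal niche 1, 2 and 3. Limbal niche 3 was the only library in which Cdk1 exceeded Pcna per length. The ratio of Cdkn1a to Ccnd1 was 0.586, 1.09 and 1.05 in keratinocyte progenitor 1, 2 and 3, and 1.32, 1.66 and 1.58 in limbal niche 1, 2 and 3. For this ratio the groups did not overlap, and it was lowest in keratinocyte progenitor 1. The level of Cdkn1a by itself also did not overlap, a pattern found, higher in limbal niche, for 4.63% of tested genes. The share of other gene pairs without overlap was not computed. These ratios were chosen after the levels had been seen and were not tested. Every ratio computed other than that of Cdkn1a to Ccnd1 and its inverse had overlapping groups. The overlapping ones not shown were Cdk1 and Pcna to Mki67, Cdk1 to Top2a and Cdkn1a to Cdk1.

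**Figure D3:**
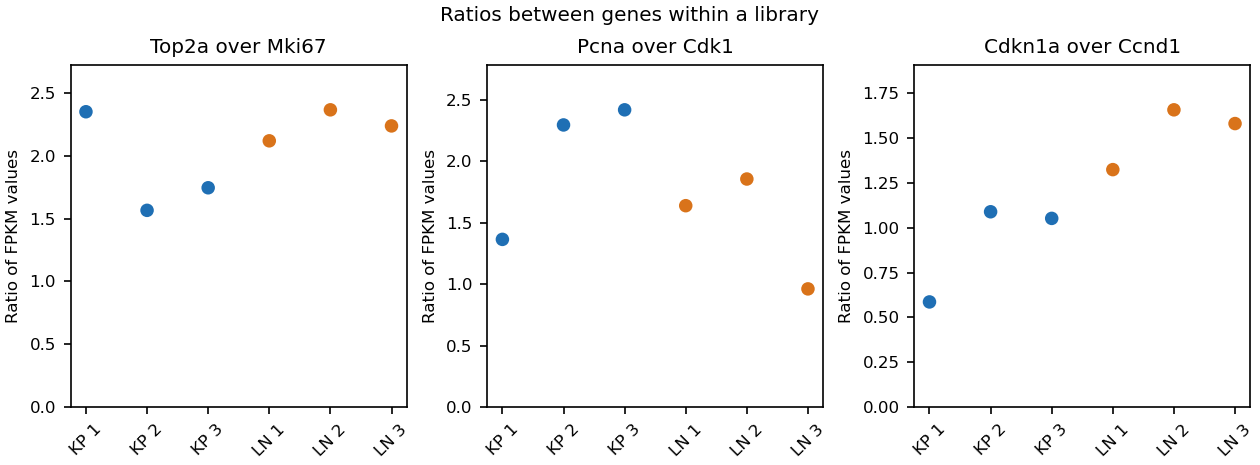
Ratio of FPKM values within each library (vertical axes, from 0) for Top2a over Mki67, Pcna over Cdk1 and Cdkn1a over Ccnd1, in keratinocyte progenitor (KP, blue) and limbal niche (LN, orange) libraries. Each point is 1 library. Pcna over Cdk1 is lowest in LN 3, at 0.961, and Cdkn1a over Ccnd1 is at or below 1.09 in KP and at or above 1.32 in LN. The level of Cdkn1a by itself also separates the labels, and the share of other gene pairs that do so was not computed.

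The comparison implied by the labels is limbal niche against keratinocyte progenitor, and none of the 6 genes passed its test. The fit was limma on log2(FPKM + 1) with Benjamini-Hochberg adjustment over 12085 genes. It called 0 genes (0% of those tested) in either direction at an adjusted p under 0.05, and 707 genes had an unadjusted p under 0.05, 2.35% higher and 3.50% lower in limbal niche. By limma-voom on the recovered reads 0 genes were called and 672 had an unadjusted p under 0.05. The limma count at an unadjusted p under 0.05 depended on single libraries: it fell to 182 when keratinocyte progenitor 3 was left out and was 1884 when keratinocyte progenitor 1 was left out. With median-of-ratios scaling it was 348 higher and 320 lower in limbal niche, against 284 and 423 as deposited. The 4 proliferation genes and Cdkn1a had higher mean levels in limbal niche and Ccnd1 a lower one, beside a median difference of -0.06 over all tested genes.

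The intervals of the proliferation genes were wide. For Cdk1 the log2 difference was 1.17, with a 95% interval of -0.36 to 2.70 (limma adjusted p = 0.793), which spans 0.777-fold to 6.48-fold in FPKM + 1. Top2a differed by 1.07 (-0.58 to 2.72), Mki67 by 0.78 (-0.55 to 2.11) and Pcna by 0.73 (-0.38 to 1.84), with limma adjusted p values of 0.793, 0.797 and 0.793. A difference of several-fold in favour of limbal niche and a modest one in the other direction both remain within these intervals. Leaving out 1 library in turn moved the differences to between 0.78 and 1.90 for Cdk1, 0.68 and 1.85 for Top2a, 0.45 and 1.37 for Mki67, and 0.44 and 1.22 for Pcna. The highest of each came without keratinocyte progenitor 1. For Ccnd1 the log2 difference was -0.21, with an interval of -0.82 to 0.39 (limma adjusted p = 0.867). It was 0.024 without keratinocyte progenitor 1, the library in which Ccnd1 was highest.

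Cdkn1a had the narrowest interval of the 6 genes and the only one that did not include 0. Its log2 difference was 0.57 with a 95% interval from 0.15 to 0.99, or 1.11-fold to 1.99-fold in FPKM + 1. The unadjusted p was 0.0155, rank 177 of 12085, and the limma adjusted p = 0.793 did not pass. All 3 limbal niche libraries showed the direction. The difference was 0.44 to 0.64 when each library was left out in turn and 0.50 to 0.65 under the other scalings.

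A fit without keratinocyte progenitor 1 and limbal niche 1 set only keratinocyte progenitor 2 and 3 against limbal niche 2 and 3. Keratinocyte progenitor 2 and 3 were nearly alike (r = 0.995), so the spread within that group was small. In this fit Mki67, Top2a, Cdk1 and Pcna passed the test. The log2 differences were then 1.68, 2.21, 2.23 and 1.45, all higher in the limbal niche libraries, with limma adjusted p values of 0.0275, 0.0158, 0.0126 and 0.0362. Cdkn1a differed by 0.58 (limma adjusted p = 0.0837) and Ccnd1 by -0.01 (limma adjusted p = 0.969). Under the other alternatives the limma adjusted p of the 4 proliferation genes ran from 0.0504 to 0.99997, and that of Cdkn1a from 0.0564. Without the 2 libraries, 867 genes were called higher (7.17% of 12085) and 937 lower (7.75%) in limbal niche. The libraries to leave out were known from earlier results to lie apart from their groups, so these calls are no independent evidence of a difference between the labelled groups. Without keratinocyte progenitor 1 alone 0 genes were called, with a lowest limma adjusted p of 0.134.

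**Figure D4:**
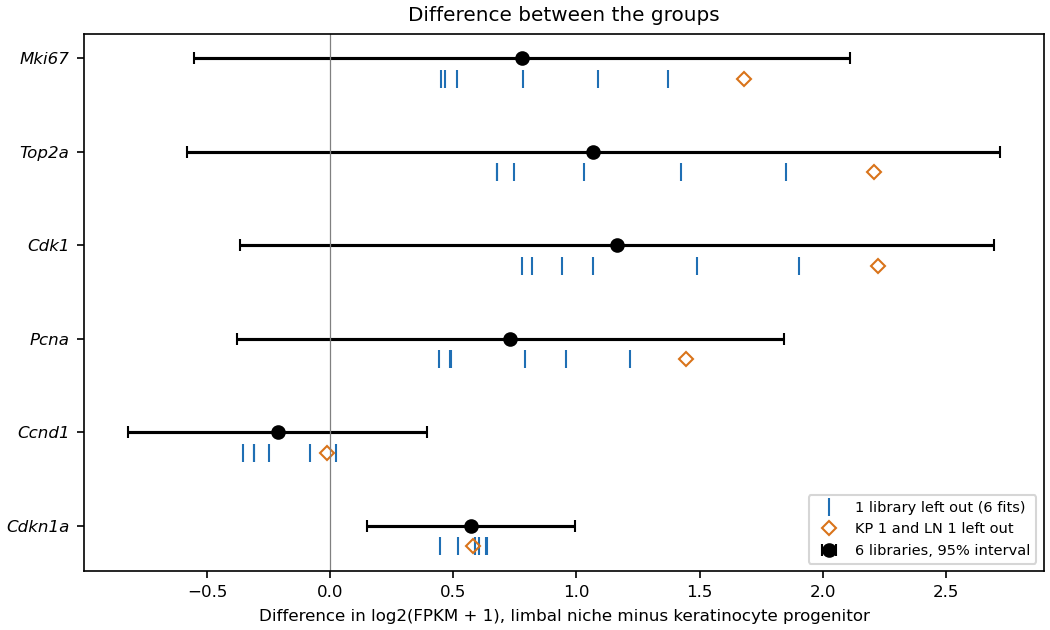
Difference in log2(FPKM + 1), limbal niche minus keratinocyte progenitor (horizontal axis), for the 6 genes. Black points and bars are the limma estimate from 6 libraries with its 95% interval, blue ticks the 6 fits with 1 library left out and orange diamonds the fit without keratinocyte progenitor 1 (KP 1) and limbal niche 1 (LN 1). Only the interval of Cdkn1a leaves out 0, and the diamonds of the proliferation genes lie farthest to the right.

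With all 3 libraries of a group, the spread within the groups was wide for the proliferation genes by the standard of the whole table. Within keratinocyte progenitors the highest and lowest log2(FPKM + 1) values of Top2a were 2.34 apart, a range larger than that of 98.6% of tested genes, where the median gene had 0.43. Cdk1 (2.25), Mki67 (1.85) and Pcna (1.46) exceeded 98.4%, 96.6% and 93.8% of tested genes. These ranges rest on keratinocyte progenitor 1. Between keratinocyte progenitor 2 and 3 the difference was 0.00025 for Top2a, 0.0796 for Cdk1, 0.133 for Mki67 and 0.0083 for Pcna, where the median tested gene had 0.0764. In limbal niche the ranges of Top2a, Mki67, Cdk1 and Pcna were 1.36, 1.24, 1.09 and 1.03, larger than those of 85.1%, 82.5%, 78.3% and 76.0% of tested genes, with a median of 0.62. Without limbal niche 1 they were 0.57, 0.63, 0.25 and 0.69, above 77.7%, 81.8%, 40.8% and 85.4% of tested genes, with a median of 0.31. Cdkn1a varied less than most tested genes within both groups, with ranges of 0.17 and 0.39 that exceeded 17.4% and 26.2% of tested genes, though the limbal niche range exceeded 59.9% without limbal niche 1. Ccnd1 had ranges of 0.75 in keratinocyte progenitors and 0.45 in limbal niche, above 75.9% and 33.3% of tested genes. Its keratinocyte progenitor range was 0.089 without keratinocyte progenitor 1.

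**Figure D5:**
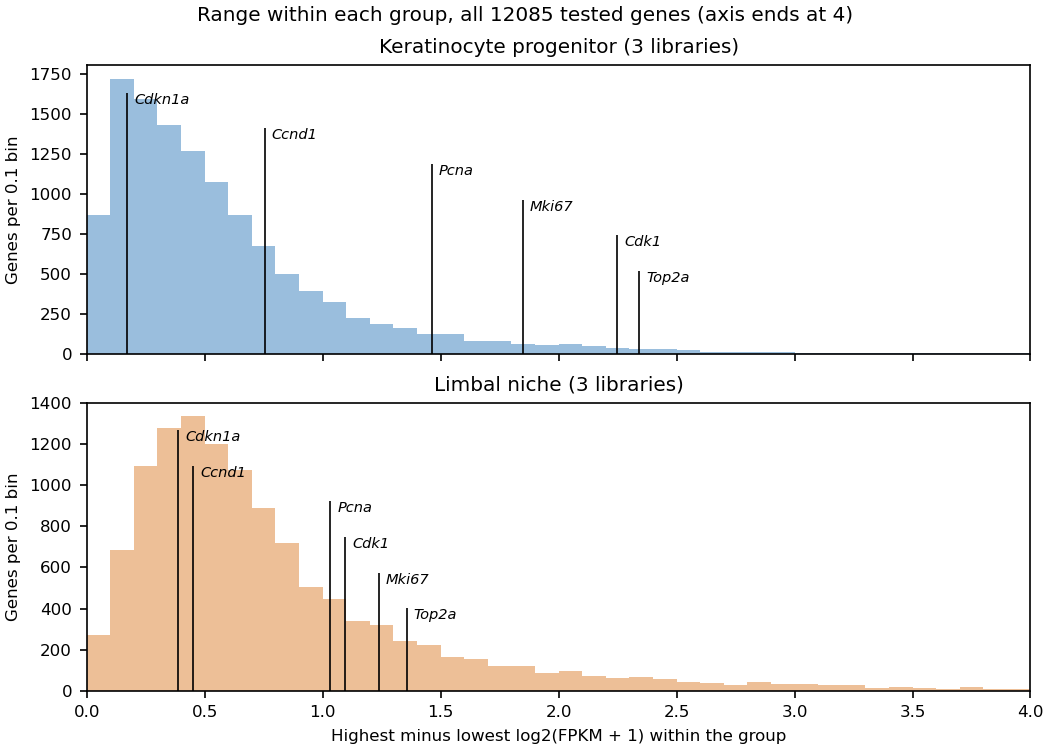
Number of tested genes (vertical axes) by their highest minus lowest log2(FPKM + 1) within the 3 keratinocyte progenitor libraries (top) and the 3 limbal niche libraries (bottom), in bins of 0.1. Black lines mark the 6 genes. Top2a, Cdk1 and Mki67 lie in the far tail among keratinocyte progenitors, at 1.85 or more, through the level of keratinocyte progenitor 1, and Cdkn1a lies at 0.17.

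The main axis of variation over all genes set the same libraries apart as the proliferation genes, but ordered them differently within each set. The first principal component of the 12085 tested genes, the members included, held 51.95% of the variance. Its correlation (of arbitrary sign) with the proliferation genes over the 6 libraries was between -0.83 (Mki67) and -0.81 (Cdk1). The share of all tested genes with such a correlation was not computed. Keratinocyte progenitor 1 (-35.0) and limbal niche 2 (-41.7) and 3 (-30.9), the high libraries, lay together on one side of that component. Limbal niche 1 lay at the other end (48.6), beyond keratinocyte progenitor 2 (27.1) and 3 (31.9). Its Mki67, Top2a, Cdk1 and Pcna levels, in contrast, lay between those libraries and the 3 high ones. Ccnd1 and Cdkn1a correlated with the component at -0.26 and -0.22. No library batch is given in the labels, so values within batches could not be made, and the part of any batch in the order of the libraries was not tested.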

How the data were processed

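Polyadenylated RNA of 6 rat libraries was sequenced, 3 per group, grouped and numbered by the sample titles. The authors deposited 1 table of FPKM values with 1 column per library, per the labels, matched by the column names in the sample descriptions. Per the submitters' processing notes FastQC, Trim Galore and DESeq2 were used. No aligner, counter, annotation, genome build or strand setting is named: each is not given in the sources used here. FPKM removes gene length and the library total but not shifts in composition.

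Reads were recovered as the whole numbers that, with whole gene lengths and totals, give the deposited FPKM values. This succeeded for 20159 of 20159 genes, and the method was tested on simulated data.

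Groups were compared with limma (version 3.58.1, R version 4.3.3), fitted to log2(FPKM + 1) of the 12085 genes whose mean reached 1 FPKM, with group as the only term, a variance trend and Benjamini-Hochberg adjustment, called at an adjusted p under 0.05. On that scale the fold of a gene with low values comes out too small. The script was tested on simulated reads. Alternatives were pseudocounts, filters, scalings, variance settings, library weights, a replicate block, limma-voom on recovered reads and left-out libraries. Ranges and correlations without keratinocyte progenitor 1, limbal niche 1 or both were added after seeing the data.

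The members, lists, tests and alternatives were chosen with earlier results of these data known. Genes named beyond the members were, by rule, the 2 with the highest and the 2 with the most negative correlation with Mki67. Eligible genes had a mean of at least 10 FPKM and a log2 range of at least 1. Further cell cycle lists and cell type markers were set by symbol and were not used here, since 0 of 20159 identifiers were paired with one of the 47357 RefSeq genes. Promoters came from the RefSeq table for GRCr8, matched by symbol for 5 of 6 members. Ccnd1 was not matched.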

Additional observations from a re-analysis of the deposited data

How the results depend on the processing

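Of 126 values of the 6 genes under alternatives, 120 had the direction and the call of the full fit, 4 became significant and 2 reversed. The significant ones were 1.68 (Mki67), 2.21 (Top2a), 2.23 (Cdk1) and 1.45 (Pcna), all without both libraries numbered 1, where the mean level of the 4 genes differed by 1.89 in place of 0.94. The reversals were both of Ccnd1, to 0.037 with library weights and 0.024 without keratinocyte progenitor 1. The filters, variance settings and replicate block cannot change a difference, only its call. Their share of the 120 was therefore fixed in advance as to direction. Leaving out 1 library in turn, the log2 difference ran from 0.45 to 1.37 for Mki67, 0.68 to 1.85 for Top2a, 0.78 to 1.90 for Cdk1, 0.44 to 1.22 for Pcna, -0.35 to 0.024 for Ccnd1, 0.44 to 0.64 for Cdkn1a and 0.60 to 1.58 for the mean level of the 4 proliferation genes. For Mki67, Top2a, Cdk1 and Pcna the highest of these came without keratinocyte progenitor 1. With library weights, which lean on keratinocyte progenitor 2 and 3, the lowest limma adjusted p of all tested genes was 0.0504. Cdk1 and Top2a had this value, and how many other genes shared it was not counted. The count of called genes was 0, 11 without a filter on low values, 0 to 2 leaving out 1 library (2 without limbal niche 3) and 1804 without both libraries numbered 1. Genes at an unadjusted p under 0.05 numbered 707, 3693 with library weights, 328 with the replicate block, 4479 without both libraries numbered 1, and 182 (without keratinocyte progenitor 3) to 1884 (without keratinocyte progenitor 1) leaving out 1 library. It was 205 without keratinocyte progenitor 2, 1309 without limbal niche 1 and 424 without limbal niche 2. The causes were not tested. With the replicate block the log2 differences were as without it (Cdk1 1.17) and no gene was called. Same-numbered libraries deviated from their group means with correlations of -0.48, -0.35 and -0.25, so the numbers are not taken to pair them. Depth was nearly equal, and each of the 6 genes had at least 455 reads in every library.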
